A study of Mus musculus with 28 samples.

Results

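The 74 potassium channel genes expressed in mouse hippocampus are described here across 7 groups of 4 RNA-seq libraries. Members were chosen by symbol, as Kcn followed by a letter code and a number, with a mean of at least 50 raw counts over the 28 libraries. Of the 24062 genes of the table, 92 symbols match, 74 reached the limit and 18 did not. All 74 also passed the low count filter that left 16369 genes for testing. Just inside the limit were Kcnh6, with a mean of 53.1 raw counts, and Kcnj14, with 59.9. Just outside were Kcnk12, with 47.8, and Kcnj5, with 42.0. Total counts ran from 32080861 to 54019519 per library.

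All mice were female. The 3xTg mice serve as a model for Alzheimer's disease: transgenes for human mutant APP and tau, both under a neuronal Thy1 cassette, are among its alleles. The wild-type mice (WT) have the genotype label BL6/129. The 3xTg groups received NAVI, DQ or 1 of 2 vehicles labelled VehN and VehD. NAVI is navitoclax (ABT263), which blocks BCL-2 family survival proteins, and DQ combines the kinase inhibitor dasatinib with the flavonoid quercetin. The WT groups received NAVI, DQ or a vehicle labelled Veh. Both treatments are used as senolytics, agents meant to remove senescent cells. The sources used here give neither ages nor doses. The labels do not say that each library is a separate animal, so the p-values measure the spread between libraries. All 7 markers of hippocampal subfields were detected in every library, the lowest value being 7.22 CPM (the count scaled to library size) for C1ql2.

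Potassium channels set the resting potential of a neuron and end its action potentials. Voltage-gated (Kv) channels are tetramers of pore-forming subunits that open on depolarization and are tuned by auxiliary proteins such as the Kv beta subunits and the calcium-binding KChIPs. Inward rectifiers and two-pore channels carry resting current, while calcium- and sodium-activated channels follow spiking. In the hippocampus these genes help to set dendritic excitability in pyramidal neurons, fast firing in interneurons and potassium uptake by astrocytes.

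Promoter sequence is shown for 2 pairs of members on which the results below turn: Kcnip3 and Kcnj4, which were lower in 3xTg than in WT with vehicle, and Kcne2 and Kcnj13, which varied together over the libraries. Each line gives the 250 bases before the first listed RefSeq start in GRCm38.p6, the assembly that mm10 names, 5′ to 3′ on the gene's strand. Capitals mark the letters TGACG or, on the other strand, CGTCA, the core of a cyclic AMP response element.
Kcnip3: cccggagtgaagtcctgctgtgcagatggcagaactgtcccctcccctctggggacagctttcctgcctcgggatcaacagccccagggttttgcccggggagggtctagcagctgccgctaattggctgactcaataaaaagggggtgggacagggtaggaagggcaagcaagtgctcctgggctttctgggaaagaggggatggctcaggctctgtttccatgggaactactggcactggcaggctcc
Kcnj4: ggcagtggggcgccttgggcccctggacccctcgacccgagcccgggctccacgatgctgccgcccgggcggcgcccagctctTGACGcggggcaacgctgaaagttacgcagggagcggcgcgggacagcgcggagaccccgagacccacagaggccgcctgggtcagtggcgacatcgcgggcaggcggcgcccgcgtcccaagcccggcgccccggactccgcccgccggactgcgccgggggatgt
Kcne2: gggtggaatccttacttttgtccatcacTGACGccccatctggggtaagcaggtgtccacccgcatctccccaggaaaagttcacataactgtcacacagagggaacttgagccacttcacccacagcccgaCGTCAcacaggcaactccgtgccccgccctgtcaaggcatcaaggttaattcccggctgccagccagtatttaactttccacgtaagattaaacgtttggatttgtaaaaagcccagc
Kcnj13: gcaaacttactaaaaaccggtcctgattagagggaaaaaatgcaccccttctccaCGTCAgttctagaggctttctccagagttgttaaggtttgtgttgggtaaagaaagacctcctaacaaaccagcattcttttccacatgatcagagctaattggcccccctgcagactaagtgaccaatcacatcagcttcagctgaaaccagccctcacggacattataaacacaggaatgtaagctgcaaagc
These windows lie at chr2:127522095-127522344 (minus strand) for Kcnip3, chr15:79505242-79505491 (minus strand, inside the RefSeq gene span) for Kcnj4, chr16:92292139-92292388 (plus strand) for Kcne2 and chr1:87394730-87394979 (minus strand) for Kcnj13. The letters were found at 1 place in Kcnj4, 2 in Kcne2, 1 in Kcnj13 and 0 in Kcnip3. Over all promoters of the table, 17.9% of 27025 held them in a window of this length, and 13 of the 52 members with an entry did. The EGR core GTGGGCG and the OTX core TAATCC, searched on both strands in the same windows, were in none of the 4. They were in 7.06% and 6.38% of all promoters, and in 6 and 1 of the 52 member promoters. The promoters and motifs were chosen after the members' values were seen. The window of Kcnj4 was 77.2% G and C, that of Kcnip3 60.0%, of Kcne2 52.4% and of Kcnj13 45.2%.

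Levels were compared between genes as CPM per kilobase of the longest annotated transcript, averaged over the 28 libraries. The 2 highest members were Kcnab2, a cytoplasmic Kv beta subunit, at 137 CPM per kilobase, and Kcna1, a Kv1 subunit of axons, at 80.3. Kcnip2, a KChIP that binds Kv4 channels, reached 53.9, and Kcnj10, the inward rectifier of astrocytes, 53.8. Kcnab2 shares an exon with another gene on the same strand, so its level is uncertain. Among other families the highest member was Kcnc2 (Kv3) at 34.6, Kcnk1 (two-pore) at 31.8, Kcnd2 (Kv4) at 29.9, Kcnf1 (silent Kv) at 17.97 and Kcnq5 (Kv7) at 17.95 CPM per kilobase. Kcnma1, the pore of the large-conductance calcium-activated (BK) channel, stood at 12.1, Kcnh3 (EAG family) at 11.3, Kcnn2 (small-conductance, calcium-activated) at 9.90, Kcnmb4, a BK beta subunit, at 8.32 and Kcne2, a single-span subunit, at 5.48. Silent Kv subunits form no channel alone and modify Kv2 channels. Members of a family could lie far apart, and Kv1 ran from 80.3 for Kcna1 to 0.64 for Kcna5.

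**Figure D1:**
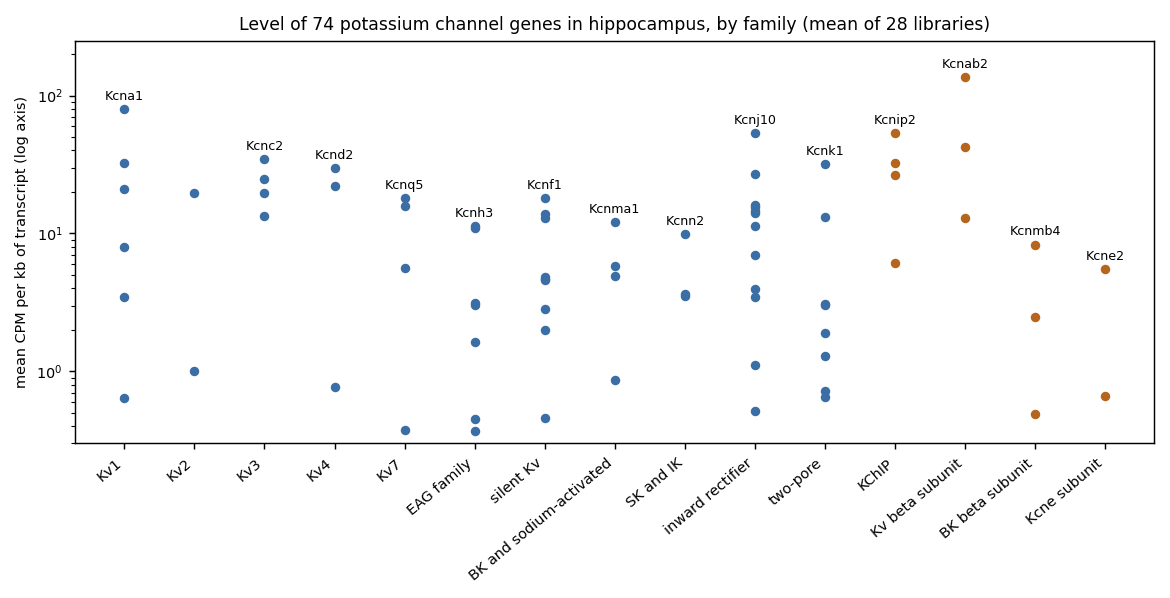
Mean CPM per kilobase of transcript over 28 libraries (log axis) for the 74 members, 1 point each, by family; blue families form pores and orange families are auxiliary, and the highest member is named in most families. Kcnab2 is highest at 137 and Kcna1 next at 80.3, while most families also hold members below 5.

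The first comparison asked how the 3xTg hippocampus differs from WT with vehicle, setting the mean of VehN and VehD against WT Veh. The labels do not say which vehicle Veh is, so a difference between vehicles cannot be told apart from one between genotypes here. Most members that differed were lower in 3xTg. Among them were the inward rectifiers Kcnj11 and Kcnj4, the KChIPs Kcnip3 and Kcnip2, the Kv subunits Kcnc4 and Kcnf1 and the EAG-family subunits Kcnh3 and Kcnh1. In edgeR's quasi-likelihood test, adjusted by Benjamini-Hochberg over all genes tested, 10 of 74 members passed an adjusted p of 0.05, beside 13.1% of all 16369 genes. Of the 10, 9 were lower, beside 7.40% of all genes, and 1 was higher, beside 5.68%. The share of members called was thus near that of all genes. In bulk tissue fewer cells of a type and less RNA per cell cannot be told apart. The estimate was below 0 for 50 of 74 members, beside 48.8% of all genes, with a median log2 difference of -0.08 for members and 0.01 for all genes. Among pore-forming subunits 6 of 62 fell and 1 rose, and among auxiliary subunits 3 of 12 fell and 0 rose. With VehD as the only 3xTg vehicle 3 members passed (Kcnj4, Kcnip3 and Kcnj11), and the other 7 calls were lost. With VehN alone 11 passed, without Kcnh1 and Kcnmb4 (edgeR adjusted p = 0.0857 and 0.0616), which thus passed against neither vehicle alone. The share of all genes called with each vehicle alone is not given. Leaving out 1 library of WT Veh ended the call of 6 members: Kcnh3 (without library 4, edgeR adjusted p = 0.0667), Kcnf1 (3, 0.0552), Kcnip2 (3 or 4, 0.0626 and 0.158), Kcnc2 (1 or 4, 0.0626 and 0.109), Kcnh1 (3 or 4, 0.142 and 0.246) and Kcnmb4 (1, 3 or 4, 0.0538 to 0.149). The calls of Kcnh1 and Kcnmb4 were also lost without single libraries of VehN or VehD (edgeR adjusted p from 0.0554 to 0.0835). Gene positions below are those of RefSeq in GRCm38.p6.

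**Figure D2:**
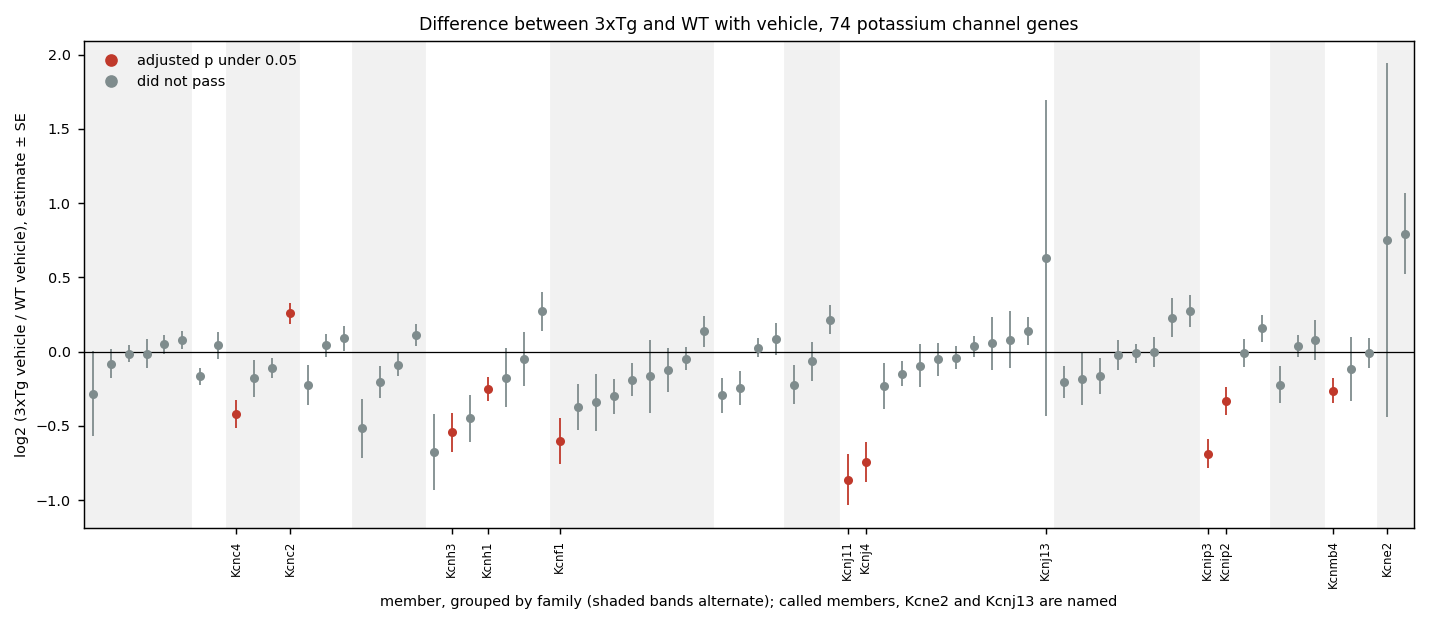
Log2 difference between 3xTg and WT with vehicle, estimate ± SE, for each member, grouped by family in alternating shaded bands; red points passed an adjusted p of 0.05, and only these, Kcne2 and Kcnj13 are named. The lowest called member is Kcnj11 at -0.86 and the only one above 0 is Kcnc2 at 0.26, while Kcne2 and Kcnj13 have the widest errors.

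Of the 12 inward rectifiers 2 fell and 0 rose. Kcnj4 (chr15:79480226-79512511) encodes Kir2.3, a strong inward rectifier of neurons that binds PSD-95. Its CPM was 49.1, 32.7, 42.9 and 49.0 in WT Veh, 29.1, 22.8, 19.5 and 29.4 in VehN, and 29.95, 25.4, 23.5 and 27.7 in VehD. All 8 libraries of 3xTg with vehicle were below all 4 of WT with vehicle. Kcnj4 fell by 0.74 on the log2 scale (SE 0.13, adjusted p = 8.88e-04 by edgeR), a level 1.68-fold lower in 3xTg. Kcnj11 (chr7:46097123-46100952) encodes Kir6.2, the pore of the ATP-sensitive potassium channel, which links membrane potential to metabolism. Its CPM was 22.7, 20.9, 33.2 and 38.2 in WT Veh, 17.8, 15.6, 11.1 and 17.0 in VehN, and 19.4, 15.6, 13.6 and 16.2 in VehD. The groups did not overlap, although WT Veh itself spread widely. Kcnj11 fell by 0.86 (SE 0.17, edgeR adjusted p = 0.00246). The other 10 inward rectifiers did not pass. Kcnj8, the other pore of ATP-sensitive channels, had an estimate of -0.23 and an adjusted p of 0.30 by edgeR, and the subunits Kcnj3, Kcnj6 and Kcnj9 of G-protein-gated channels had estimates of 0.04, -0.04 and -0.15. Astrocytic Kcnj10 had an estimate of 0.14 (edgeR adjusted p = 0.30).

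Of the 4 KChIPs 2 fell and 0 rose. Kcnip3 (chr2:127456498-127522094), also known as calsenilin or DREAM, binds Kv4 channels and represses transcription. Its CPM was 132, 101, 127 and 99.6 in WT Veh, 75.6, 71.3, 53.3 and 71.8 in VehN, and 82.3, 73.99, 63.5 and 78.5 in VehD. Kcnip3 fell by 0.69 on the log2 scale (SE 0.10, edgeR adjusted p = 5.99e-05), a level 1.61-fold lower in 3xTg and the smallest p of any member. The separation also held over all 28 libraries, which include those of this comparison. The 16 libraries of 3xTg, under any treatment, ranged from 53.3 to 86.3 CPM, and the 12 of WT from 90.7 to 132 CPM. Kcnip3 was the only member whose 3xTg libraries all lay below all WT libraries, which held for 0.232% of all genes. Between the vehicle groups alone 5 members were separated in that way, beside 2.81% of all genes: Kcnip3, Kcnj4, Kcnj11, Kcnc4 and Kcnf1. Kcnip2 was 166, 168, 199 and 228 CPM in WT Veh, 145, 136, 139 and 155 in VehN, and 140, 170, 163 and 157 in VehD. The groups overlapped at 1 VehD library, and Kcnip2 fell by 0.33 (SE 0.09, edgeR adjusted p = 0.0210). Kcnip4 had an estimate of 0.16 and Kcnip1 of -0.01, with edgeR adjusted p of 0.24 and 0.96. The Kv4 subunits that KChIPs bind did not pass either: the estimates were 0.04 for Kcnd2, 0.09 for Kcnd3 and -0.22 for Kcnd1.

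Kv3 channels repolarize fast and are known from fast-spiking interneurons, and 2 of the 4 Kv3 members passed in opposite directions. Kcnc4 (chr3:107438298-107460287) was 57.6, 51.8, 58.4 and 61.3 CPM in WT Veh, 39.4, 41.5, 37.8 and 46.4 in VehN, and 51.0, 42.8, 41.5 and 42.2 in VehD. It fell by 0.42 (SE 0.10, edgeR adjusted p = 0.00684). Kcnc2 was 158, 167, 170 and 143 CPM in WT Veh, 211, 209, 183 and 162 in VehN, and 193, 197, 180 and 192 in VehD. Only 1 VehN library reached into the WT range, and Kcnc2 rose by 0.26 (SE 0.07, edgeR adjusted p = 0.0215), the only member called higher. Thalamic neurons also express Kcnc2, and the thalamus and habenula markers differed between these libraries. The summed level of the 12 markers ran from 153 to 311 CPM in WT Veh, 182 to 907 in VehN and 161 to 538 in VehD, and the thalamus-restricted marker Gbx2 was at 0 in at least 1 library. Without the 8 libraries with a high thalamus score Kcnc2 was 0.18 higher (edgeR adjusted p = 0.0605). That fit also has fewer libraries, and the part of thalamic tissue in the Kcnc2 difference was not tested. The silent subunit Kcnf1 (chr12:17172100-17176888) was 94.1, 121, 127 and 94.9 CPM in WT Veh, 59.9, 65.3, 86.1 and 61.6 in VehN, and 73.98, 78.7, 92.7 and 57.7 in VehD. The highest 3xTg library stood just below the lowest WT library, and Kcnf1 fell by 0.60 (SE 0.15, edgeR adjusted p = 0.0139). The other 8 silent Kv members did not pass, with estimates from -0.37 for Kcng1 to 0.14 for Kcns3.

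Of the 7 EAG-family members 2 fell and 0 rose. Kcnh3 (chr15:99224517-99242818) encodes a voltage-gated subunit of forebrain neurons that dampens excitability. Its CPM was 50.9, 36.5, 47.0 and 56.6 in WT Veh, 33.0, 27.8, 26.8 and 36.6 in VehN, and 38.1, 34.3, 33.1 and 32.2 in VehD. The lowest WT library stood among the highest 3xTg libraries, and Kcnh3 fell by 0.54 (SE 0.13, edgeR adjusted p = 0.00980). Kcnh3 shares exon sequence with Mcrs1 on the opposite strand, and the strand setting of the counting is not given, so its counts are uncertain. Kcnh1, the founding EAG member, fell by 0.25 (SE 0.08, edgeR adjusted p = 0.0411), from 67.5, 81.1, 94.5 and 99.3 CPM in WT Veh to between 66.2 and 76.9 in the 3xTg vehicle libraries. Kcnmb4, the neuronal BK beta subunit, fell by 0.26 (SE 0.08, edgeR adjusted p = 0.0415), from 15.6, 13.4, 16.2 and 13.2 CPM in WT Veh to between 10.8 and 14.0. It overlaps antisense genes and its counts are uncertain in the same way. For both, 1 or more libraries of WT Veh lay inside the 3xTg range. The BK pore gene Kcnma1 had an estimate of 0.03 (edgeR adjusted p = 0.80).

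**Figure D3:**
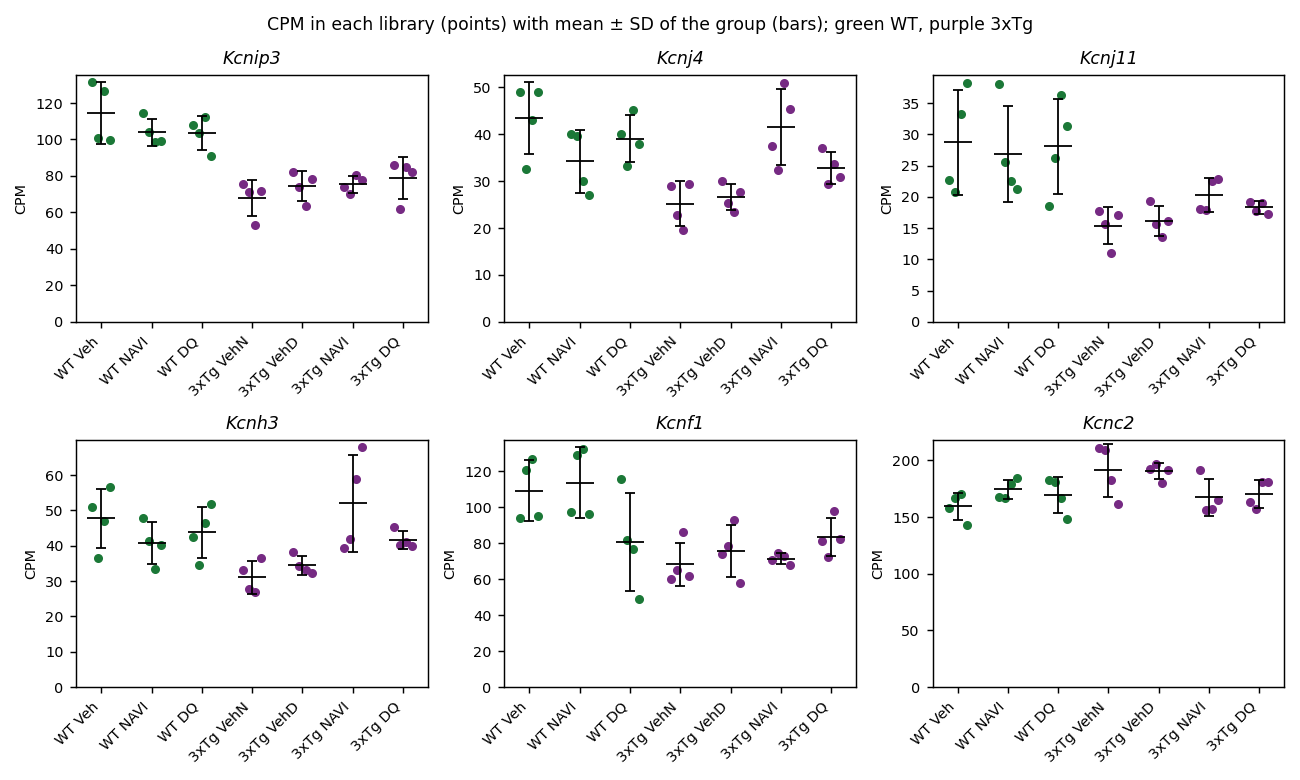
CPM of 6 members in each library (points) with the mean and SD of each group of 4 (bars), WT in green and 3xTg in purple. For Kcnip3 every 3xTg library lies below every WT library, while Kcnj4 and Kcnh3 in 3xTg with NAVI reach the WT range.

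No member of the Kv1, Kv2, Kv4, Kv7, two-pore, small-conductance, BK pore and sodium-activated, Kv beta or Kcne families passed in this comparison. Genes that work beside the members were counted in the same way, beside the 5.68% of all genes called higher and the 7.40% called lower. Of 21 scaffold and channel partner genes tested 2 fell and 0 rose, and Dlg4, which encodes PSD-95, fell by 0.36 (SE 0.08, edgeR adjusted p = 0.00775). Of 10 potassium pumps and cotransporters 1 rose and 1 fell, with Atp1b3, a sodium pump subunit, higher by 0.27 (SE 0.07, edgeR adjusted p = 0.0207). Of 15 voltage-gated calcium channel genes 0 rose and 3 fell, among them Cacnb1, a beta subunit, which fell by 0.33 (SE 0.09, edgeR adjusted p = 0.0156). Of 7 sodium channel genes 1 rose and 0 fell, and of 5 HCN channel genes none passed. Median log2 differences of these lists lay between -0.04 and 0.02, beside 0.01 for all genes.

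Marker sums of neurons and glia were compared between the same groups. The 7 markers of hippocampal subfields summed to between 520 and 612 CPM in WT Veh, 416 and 492 in VehN and 448 and 477 in VehD, so that the groups did not overlap, and none of the 7 was at 0. The 4 markers of excitatory neurons summed to between 4809 and 6003 CPM in WT Veh, 4424 and 5136 in VehN and 4560 and 5064 in VehD, which overlap. The 5 interneuron markers overlapped too, between 867 and 1077 CPM in WT Veh, 871 and 975 in VehN and 878 and 1005 in VehD. Glial sums were higher in 3xTg. The 5 astrocyte markers summed to between 2502 and 2750 CPM in WT Veh, 3054 and 3858 in VehN and 3353 and 3832 in VehD, and the 5 microglia markers to between 339 and 408, 411 and 456, and 422 and 499 CPM, with no overlap. The 3 markers of plaque-associated microglia lay between 2.54 and 3.99 CPM in WT Veh, 18.3 and 27.7 in VehN and 20.9 and 31.01 in VehD. The 4 oligodendrocyte markers overlapped, between 3578 and 4236 CPM in WT Veh, 4097 and 7339 in VehN and 4194 and 6132 in VehD. No marker of these lists was at 0 in any library. The part of cell composition in the members' differences was not tested.

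The genotypes were also compared within each treatment. These comparisons use other libraries than the vehicle comparison. With NAVI, Kcnip3 and Kcnf1 were again lower in 3xTg, while Kcnj4 and Kcnh3 were not. Of 74 members 7 passed, beside 5.98% of all genes, with 6 lower, beside 2.69%, and 1 higher, beside 3.29%. Kcnip3 was 114, 104, 98.6 and 99.1 CPM in WT NAVI and 73.8, 69.9, 80.6 and 77.7 in 3xTg NAVI, lower by 0.46 in 3xTg (log2 difference -0.46, SE 0.11, edgeR adjusted p = 0.0172). Kcnf1 was 97.5, 129, 132 and 96.3 CPM against 70.6, 74.6, 73.0 and 67.6, and fell by 0.67 (SE 0.18, edgeR adjusted p = 0.0294). Neither pair of groups overlapped, and the share of all genes separated in this way with NAVI was not computed. Of the astrocytic inward rectifiers, which form joint channels, Kcnj16 was 49.0, 54.3, 48.2 and 49.1 CPM in WT NAVI and 34.9, 35.7, 32.5 and 37.6 in 3xTg NAVI, and fell by 0.51 (SE 0.13, edgeR adjusted p = 0.0191). Kcnj10 was 435, 335, 327 and 305 CPM against 287, 300, 266 and 236, and fell by 0.36 (SE 0.11, edgeR adjusted p = 0.0468). Kcnk2, a two-pore channel opened by stretch and lipids, was 36.5, 34.2, 45.8 and 27.7 CPM in WT NAVI and 52.4, 60.9, 52.0 and 52.7 in 3xTg NAVI. It was the only one higher in 3xTg, by 0.60 (SE 0.15, edgeR adjusted p = 0.0186), and it overlaps a gene on the opposite strand. The Kv beta subunit Kcnab3 fell by 0.55 and the axonal Kv1 subunit Kcna2 by 0.24, with edgeR adjusted p of 0.0383 and 0.0476. The estimates of Kcnj4 and Kcnh3 were 0.28 and 0.35 here. Of the 7 calls, those of Kcnip3, Kcnk2, Kcnj16 and Kcnf1 were followed in each alternative. The Kcnip3 call was lost without WT NAVI 1 (edgeR adjusted p = 0.0564), the Kcnk2 call without WT NAVI 4 (0.0684) and the Kcnj16 call without 3xTg NAVI 3 (0.0752) or WT NAVI 2 (0.0526). The Kcnf1 call was lost without 3xTg NAVI 1, 3 or 4 or WT NAVI 2 or 3 (edgeR adjusted p from 0.0607 to 0.104), and with thalamus and choroid plexus scores as covariates (0.0625).

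With DQ, 0 of 74 members passed between the genotypes, beside 3.05% of all genes. At an unadjusted p under 0.05 there were 8, beside 17.4%, and DESeq2 called 3: Kcnip3, Kcne4 and Kcng4. The share of all genes that DESeq2 called here is not given. Kcng4, a silent Kv subunit, was 6.54, 7.02, 8.08 and 21.2 CPM in WT DQ and 5.76, 6.56, 5.67 and 5.19 in 3xTg DQ. Its edgeR estimate of -0.88 (adjusted p = 0.100) turned on WT DQ 4, without which it was -0.32 (adjusted p = 0.561). Kcnip3 was 108, 103, 112 and 90.7 CPM in WT DQ and 86.3, 62.0, 84.9 and 82.1 in 3xTg DQ, with an estimate of -0.40 (SE 0.11, edgeR adjusted p = 0.0587). The groups did not overlap, and the share of all genes separated in this way with DQ was not computed. Kcnj11 was 18.6, 26.2, 36.3 and 31.3 CPM against 19.2, 17.7, 19.1 and 17.3, with an estimate of -0.61 (SE 0.21, edgeR adjusted p = 0.114). Kcnf1, lower in 3xTg with vehicle and with NAVI, was not lower with DQ. Its libraries overlapped, with a mean of 80.8 CPM (49.0 to 116) in WT DQ and 83.4 CPM (72.5 to 97.6) in 3xTg DQ.

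Navitoclax was compared with its vehicle in 3xTg. Kcnj4 and Kcnh3, low in 3xTg with vehicle, were higher with NAVI than with VehN in every library, although neither passed. This comparison and that of the genotypes with vehicle share the VehN libraries. Kcnj4 was 29.1, 22.8, 19.5 and 29.4 CPM in VehN and 37.4, 32.5, 50.9 and 45.3 in 3xTg NAVI, with an estimate of 0.72 (SE 0.16, edgeR adjusted p = 0.0595). Kcnh3 was 33.0, 27.8, 26.8 and 36.6 CPM against 39.4, 41.9, 58.9 and 67.9, with an estimate of 0.74 (SE 0.16, edgeR adjusted p = 0.0595). For both genes the 2 groups did not overlap and the spread was wide with NAVI. The share of all genes separated in this way between NAVI and VehN was not computed. Kcnip4 was 67.3, 74.2, 72.2 and 70.1 CPM against 62.6, 58.6, 51.0 and 48.9, with an estimate of -0.36 (SE 0.10, edgeR adjusted p = 0.0605). Kcnip4 overlaps genes on the opposite strand. With edgeR 0 of 74 members passed, beside 0.00% of all genes. At an unadjusted p under 0.05 there were 19 members, beside 29.1% of all genes, and DESeq2 called 9 members, beside 11.9%.

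The NAVI effect in 3xTg was then set against that in WT. In WT the estimate was -0.34 for Kcnj4 (SE 0.16), whose CPM was 49.1, 32.7, 42.9 and 49.0 in WT Veh and 39.98, 39.7, 30.1 and 27.01 in WT NAVI. It was -0.23 for Kcnh3 and 0.14 for Kcnip4. The difference between the genotypes in this effect passed for 5 members, beside 8.13% of all genes: 3 higher in 3xTg, beside 5.89%, and 2 lower, beside 2.24%. It was 1.06 for Kcnj4 (SE 0.22, edgeR adjusted p = 0.0427), 0.97 for Kcnh3 (SE 0.22, same adjusted p), -0.50 for Kcnip4 (SE 0.15, edgeR adjusted p = 0.0444) and -0.50 for Kcnj10 (SE 0.15, edgeR adjusted p = 0.0472). Kcnj10, the astrocyte rectifier, had NAVI estimates of -0.12 in 3xTg and 0.38 in WT. The count turned on single libraries: 0 members passed without any one of 3xTg NAVI 3, 3xTg NAVI 4, VehN 2, VehN 3, WT NAVI 2, WT NAVI 3, WT NAVI 4, WT Veh 1 or WT Veh 4, while 16 passed without 3xTg NAVI 2, 9 without VehN 1 and 8 without WT Veh 2. None passed with the low count filter left out or in a fit of these 4 groups alone. The share of all genes called in these alternatives is not given, so the counts show no shift particular to the members. The WT vehicle is labelled only Veh, so a difference between vehicles cannot be told apart from the difference between genotypes.

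The remaining comparisons gave 0 called members with edgeR and 0 with DESeq2. At an unadjusted p under 0.05 there were 2 members for DQ in 3xTg, beside 1.83% of all genes, 5 for NAVI in WT, beside 7.74%, 3 for DQ in WT, beside 3.38%, 4 for the DQ effect by genotype, beside 2.85%, and 2 for VehN against VehD in 3xTg, beside 4.93%. For DQ in WT 0.00611% of all genes passed the adjusted threshold. The largest estimate of DQ in WT was 0.99 for Kcne4 (SE 0.30, edgeR adjusted p = 0.9997), a single-span subunit at 1.59, 1.14, 1.05 and 0.956 CPM in WT Veh and 2.65, 1.29, 3.31 and 2.14 in WT DQ. For NAVI in WT the smallest p belonged to Kcnab3, at 35.2, 21.8, 31.5 and 30.7 CPM in WT Veh and 63.1, 39.3, 46.0 and 33.8 in WT NAVI, with an estimate of 0.61 (SE 0.16, edgeR adjusted p = 0.614). Kcnab3 overlaps its antisense gene. For DQ in 3xTg it was Kcna3, a Kv1 subunit also known from immune cells, at 6.67, 7.06, 7.53 and 5.28 CPM in VehD and 7.82, 7.67, 8.58 and 7.48 in 3xTg DQ, with an estimate of 0.25 (SE 0.11). In 3xTg DQ Kcnj4 was 37.1, 29.5, 33.6 and 30.9 CPM, with an estimate of 0.30 (SE 0.16), and Kcnh3 had one of 0.27 (SE 0.16). Over the 7 groups at once 11 members differed, beside 10.4% of all genes.

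Transcript base composition moved with several of these differences. Over the 74 members the log2 difference of genotype with vehicle had a Pearson r of -0.50 with the GC content of the longest transcript, and over 15590 genes r was -0.31. For NAVI in 3xTg r was 0.46 over members and 0.48 over all genes, while the genotype difference in the NAVI effect gave 0.56 and 0.58. Genes are not independent replicates, and the comparisons share libraries, so no test is given. The slope of log2 CPM on GC in a library, per 10 percentage points, was 0.09 ± 0.14 in WT Veh, -0.12 ± 0.18 in VehN, -0.10 ± 0.14 in VehD and 0.14 ± 0.16 in 3xTg NAVI (SD, n = 4). The called members Kcnh3 (61.2% GC), Kcnc4 (59.6%), Kcnj4 (59.3%) and Kcnj11 (57.1%) lie above the members' median of 51.8% and Kcnc2 (45.7%) below it. Kcnmb4, also called lower, goes the other way at 44.3%, and the other 4 called members lie between 52.4% and 55.1%. With each library's GC trend removed, the genotype difference with vehicle was -0.59 for Kcnip3, -0.53 for Kcnj4, -0.70 for Kcnj11 and -0.28 for Kcnh3, all past the threshold (edgeR adjusted p from 1.03e-04 to 0.0210). It was -0.20 for Kcnc4, -0.51 for Kcnf1, -0.21 for Kcnip2, -0.20 for Kcnh1 and 0.17 for Kcnc2, none of which passed, while Kcnmb4 passed at -0.39. For NAVI in 3xTg Kcnj4 then had an estimate of 0.42 and Kcnh3 of 0.37, both with an edgeR adjusted p of 0.105, and 0 members passed for the NAVI effect by genotype.

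**Figure D4:**
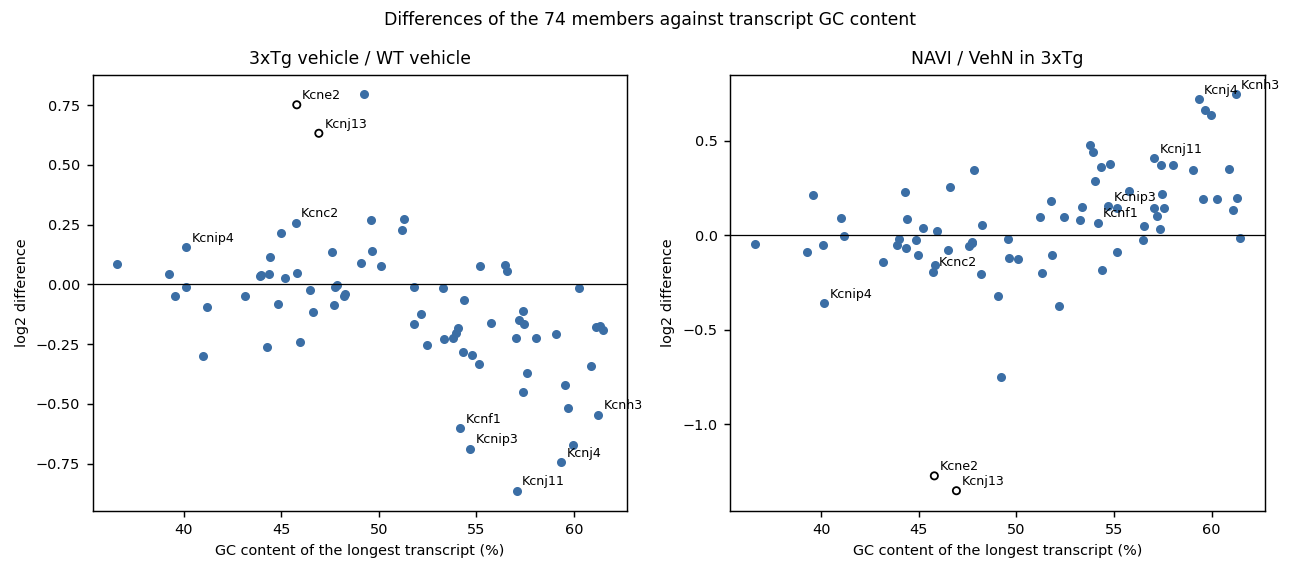
Log2 difference of each member against the GC content of its longest transcript, for 3xTg against WT with vehicle (left) and NAVI against VehN in 3xTg (right); open circles are Kcne2 and Kcnj13. GC-rich members tend to lie below 0 on the left, with r of -0.50, and above 0 on the right, with r of 0.46.

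Kcne2 and Kcnj13 varied most among the members, within groups as well as between them. Kcne2 encodes a single-span subunit that joins Kv7 channels, and Kcnj13 an inward rectifier, Kir7.1, and both are known from the choroid plexus epithelium that secretes cerebrospinal fluid. Kcne2 was 0.409, 13.5, 0.743 and 17.3 CPM in WT Veh, 28.7, 18.9, 14.2 and 11.97 in VehN, and 12.9, 0.218, 0.410 and 25.2 in VehD. Kcnj13 was 2.02, 30.2, 1.35 and 35.9 CPM in WT Veh, 44.3, 44.9, 29.2 and 25.2 in VehN, and 25.0, 0.675, 1.11 and 53.0 in VehD. The same libraries were high for both genes. The libraries fell into 14 with a high and 14 with a low score of choroid plexus markers, and the 10 markers, none at 0, summed to between 71.6 and 5911 CPM. Kcne2 ran from 11.97 to 28.7 CPM (median 16.7) in the high set and from 0.218 to 4.74 (median 0.656) in the low set. Kcnj13 ran from 24.3 to 53.0 CPM (median 32.0) and from 0.675 to 6.98 (median 2.28). All 4 VehN libraries were in the high set, 2 each of VehD, WT Veh, WT DQ and 3xTg NAVI, and 1 each of 3xTg DQ and WT NAVI. The genotype estimates with vehicle were 0.75 for Kcne2 and 0.63 for Kcnj13 (SE 1.19 and 1.06). For NAVI in 3xTg they were -1.27 and -1.35, and none of the 4 passed. The part of choroid plexus tissue in these estimates was not tested.

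**Figure D5:**
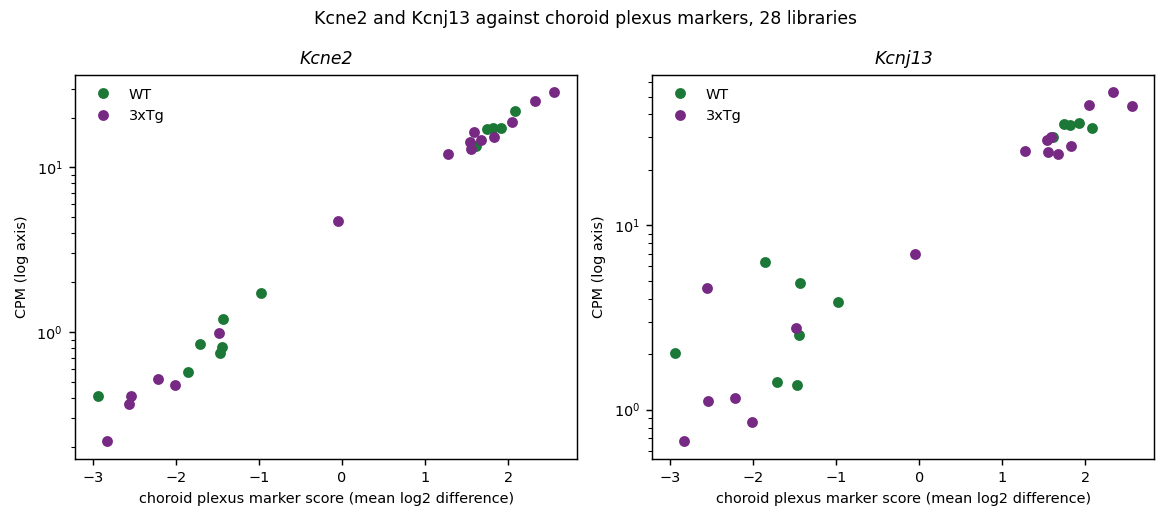
CPM of Kcne2 and Kcnj13 (log axes) against the score of 10 choroid plexus markers in each of 28 libraries, WT in green and 3xTg in purple. Both genotypes have libraries at both ends, and the 14 libraries with a high score hold 11.97 to 28.7 CPM of Kcne2.

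Other members also varied together between libraries of 1 group. With group means removed, Pearson's r over the 28 libraries was 0.95 for Kcne2 with Kcnj13, 0.89 for the Kv1 partner Kcnab1 with the Kv4 subunit Kcnd2 and 0.85 for Kcnip3 with Kcnj9. These pairs were picked from those with the largest absolute r over all pairs of members. Negative values were among the largest too, such as -0.79 for Kcnf1 with Kcng4, and r over pairs of other genes was not computed. Each pair shares its libraries, their depth and their base composition trend, so these values are a description.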

How the data were processed

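Per the labels' protocols, stranded poly(A) libraries of female hippocampus were sequenced with paired reads on a NovaSeq. The authors deposited raw counts per gene symbol, with 1 column per library; per the submitters' processing notes STAR, Subread and featureCounts were used with build mm10, without versions. The sources used here give neither the annotation nor the strand setting.

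Counts were tested with edgeR 4.0.16 (R 4.3.3): TMM factors, filterByExpr, 1 coefficient per group, all 28 libraries, the quasi-likelihood test and Benjamini-Hochberg adjustment over 16369 genes, called at an adjusted p under 0.05. SE is the absolute log2 difference over the square root of F. CPM use TMM factors. In 3xTg each drug was compared with the vehicle that shares its label letter (VehN for NAVI, VehD for DQ). In WT both treatments were compared with Veh, which the labels match to neither. Marker scores are means of log2 CPM (prior count 2) relative to all libraries. The score limits of 0.2 for thalamus and 0.5 for choroid plexus were chosen after the scores were seen. Transcript lengths and GC come from GENCODE M21 and positions and promoters from RefSeq GRCm38.p6, which lists all 74 members and promoters for 52.

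Named genes are Kcnj4; the 10 members with the smallest p for genotype with vehicle and the 4 smallest in each other comparison; the highest member of each family per length; the 3 with the largest spread over the WT libraries; the 2 on either side of the count limit; and 3 partner genes. Some results of this rule are not reported here. Members outside this rule are named beside them for context, after their values were seen. Members and lists were chosen with earlier results of these data known. The code was tested on simulated counts. No pair of libraries in a group agreed within sampling noise (lowest chi-square per degree of freedom 12.3). The alternatives were RLE factors, no filter, DESeq2 1.42.0, the replicate number as a block, only the libraries of a comparison, other vehicle references, each library left out and, added after seeing the data, leaving out 8 libraries with a high thalamus score, thalamus and choroid scores as covariates, and removal of each library's GC trend.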

Additional observations from a re-analysis of the deposited data

Results flagged for a closer look

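Among 37 named members, 259 groups of 4 libraries were searched for a library far from the other three by Dixon's test, and 21 were found, where chance marks about 1 group in 20. In WT NAVI the second library was the only one high in Kcne2 (17.1 CPM, the others 0.809 to 1.20) and in Kcnj13 (35.6 CPM, the others 1.42 to 4.89), and it was the only one of that group with a high choroid plexus score. Kcnip4 was low there (64.4 CPM, the others 68.96 to 69.4) and Kcnj16 high (54.3 CPM, the others 48.2 to 49.1).

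In WT DQ the fourth library was high in Kcng4 (21.2 CPM, the others 6.54 to 8.08) and in Kcnip1 (36.7 CPM, the others 24.1 to 25.2), and it was among the 8 with a high thalamus score. The part of this in the values was not tested. The second library of WT DQ was high in Kcnip4 (82.3 CPM) and Kcnd2 (179.6 CPM).

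In WT NAVI the fourth library was high in Kcng2 (16.4 CPM) and Kcnn2 (55.2 CPM) and the first in Kcna1 (378 CPM). Kcnj16 was low in the first library of WT Veh (31.6 CPM) and high in the third of VehN (51.2 CPM).

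In VehD the first library was high in Kcnc4 (51.0187 CPM, the others 41.5 to 42.8) and the fourth low in Kcnma1 (124.7 CPM). In VehN the fourth was high in Kcnh6 (1.08 CPM). In 3xTg NAVI the first library was low in Kcnh1 (69.4 CPM) and high in Kcnk10 (5.44 CPM), the second high in Kcnk2 (60.9 CPM) and the fourth low in Kcnk1 (63.8 CPM). In 3xTg DQ the third was high in Kcng1 (26.3 CPM).

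For 4 of the named members the NAVI effect differed between 3xTg and WT by the test of that difference in edgeR: on the log2 scale by 1.06 for Kcnj4, 0.97 for Kcnh3, -0.50 for Kcnip4 and -0.50 for Kcnj10. As given above, these calls were lost without certain single libraries and in other alternatives. A difference between vehicles cannot be told apart from this one, as the WT vehicle is labelled only Veh.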

How the results depend on the processing

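The direction of an estimate was followed only in the comparisons where a member was named for a small p. None of these estimates reversed under any alternative run. The genotype calls with vehicle of Kcnip3, Kcnj4 and Kcnj11 passed in each alternative, and RLE factors kept all 11 counts of members within 1.5 times. Counts of called members moved as follows, and the cause was not tested. The share of all genes called is not given beside the counts here and below, so they show no shift particular to the members. Genotype with vehicle (10 members) gave 3 with VehD alone, 18 without the 8 libraries with a high thalamus score and 6 with thalamus and choroid plexus scores as covariates. Genotype with NAVI (7) gave 4 with only its own libraries and 13 with DESeq2, and genotype with DQ (0) gave 1 and 3. NAVI in 3xTg (0) gave 9 with DESeq2, 6 against the mean of both vehicles, 5 without the high-thalamus libraries and 4 with the covariates. The NAVI effect by genotype (5) gave 0 without a low count filter, with only its own libraries or with the GC trend removed, 13 with DESeq2 and 10 both without the high-thalamus libraries and with the covariates. Any difference among the groups (11) gave 19 with DESeq2, and 7 both without the high-thalamus libraries and with the covariates.

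Leaving out each library in turn gave 5 to 16 members for genotype with vehicle (5 without WT Veh 4, 6 without WT Veh 3, 16 without WT Veh 2), 2 to 12 for genotype with NAVI (2 without 3xTg NAVI 3, 12 without 3xTg NAVI 2), 0 to 2 for genotype with DQ, 0 to 11 for NAVI in 3xTg (11 without VehN 1), 0 to 16 for the NAVI effect by genotype and 6 to 13 for any difference.

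The replicate number as a block gave 15 members for genotype with vehicle, 12 for genotype with NAVI, 1 for genotype with DQ, 9 for NAVI in 3xTg, 11 for the NAVI effect by genotype and 17 for any difference. The numbers are not shown to pair libraries: same-numbered libraries of different groups had a mean correlation of deviations of 0.03 (84 pairs, lowest -0.40), other pairs -0.01, and 10 of 28 libraries correlated best with their own number.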
